A study of Homo sapiens with 6 samples.

Results

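The estrogen-related and NR4A nuclear receptor genes were examined by chromatin accessibility in EndoC-βH3 cells. They were ESR1, ESR2, ESRRA, ESRRG, PGR, GREB1, NR4A1, NR4A2 and NR4A3. Their regions were chosen by position in the genome and not by any measured value, but the genes were chosen with earlier results of these data known. Regions within 2 kb of where a protein-coding transcript of a member begins were taken as promoter regions, and a distal region was any other region whose nearest protein-coding start site, within 100 kb, was that of a member. This gave 73 of the 108542 regions of the table, of which 30 were promoter regions of all 9 genes and 43 were distal regions of 8 genes, since ESRRA had 0 distal regions.

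EndoC-βH3 is a single human beta-like cell line derived from fetal pancreas and immortalised with SV40 Large T-antigen and hTERT, which the CreER recombinase removes when activated. The assay for transposase-accessible chromatin by sequencing (ATAC-seq) was run on 3 libraries of senescent and 3 of non-senescent cells, each from 100000 cells. The senescent cells had spent 3 weeks in 4-hydroxy tamoxifen (4-OHT), at a dose that the labels and the study's methods give differently, and the labels call the other group control and the genotype of both groups WT. The labels do not say that the replicates were separate cultures, so the errors below measure the spread between these libraries, which may be technical.

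4-OHT is itself a ligand of the estrogen receptors, and CreER is a fusion of Cre with the ligand-binding domain of an estrogen receptor. The sources mention no vehicle for the control group and no line without CreER. Exposure to the ligand, loss of the immortalising genes and senescence therefore cannot be told apart in any value below. Of the 8 coding exons of the canonical ESR1 transcript, only exon 1 carried a region of the table, so none lay over the canonical exons that encode the ligand-binding domain.

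Nuclear receptors are transcription factors with a zinc-finger DNA-binding domain and, in most, a ligand-binding pocket. ESR1 and ESR2 encode estrogen receptors α and β, which bind DNA as dimers at paired elements and, through other factors such as AP-1, also act without them. The estrogen-related receptors, here ESRRA and ESRRG, bind no estrogen and drive genes of mitochondrial metabolism, and ESRRG is known for its part in the metabolic maturation of beta cells. The NR4A receptors NR4A1 (Nur77), NR4A2 (Nurr1) and NR4A3 (Nor1) act without a known physiological hormone and are induced within minutes as immediate early genes, by cAMP and calcium signals among others. PGR, the progesterone receptor, and GREB1, a cofactor of estrogen receptor α, are textbook targets of that receptor.

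The sequences that the main results turn on were read from hg38, 5′ to 3′ on the strand of the gene, with matches to the searched elements in capitals. The intergenic region past the end of NR4A1, shown because it had the largest fall of all the regions of the 9 genes, lay at chr12:52060156-52060455 on the plus strand and held none of the elements.
NR4A1 downstream: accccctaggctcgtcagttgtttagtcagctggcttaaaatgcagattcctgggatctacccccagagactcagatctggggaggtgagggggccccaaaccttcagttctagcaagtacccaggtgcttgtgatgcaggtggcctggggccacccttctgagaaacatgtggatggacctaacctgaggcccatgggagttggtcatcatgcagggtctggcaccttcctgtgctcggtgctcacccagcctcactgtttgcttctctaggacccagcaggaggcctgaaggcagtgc
The region that rose near NR4A2 is shown by its middle 300 bases, at chr2:156380188-156380487 on the minus strand, and had no match.
NR4A2 distal: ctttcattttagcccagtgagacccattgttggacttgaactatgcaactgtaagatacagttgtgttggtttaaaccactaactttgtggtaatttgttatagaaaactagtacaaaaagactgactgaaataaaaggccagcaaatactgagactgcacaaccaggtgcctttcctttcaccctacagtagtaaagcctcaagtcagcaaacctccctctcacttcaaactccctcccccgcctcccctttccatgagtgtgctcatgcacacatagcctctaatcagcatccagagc
The ESR2 promoter at chr14:64294411-64294660 on the minus strand is shown because its region fell, and it held 1 core element.
ESR2 promoter: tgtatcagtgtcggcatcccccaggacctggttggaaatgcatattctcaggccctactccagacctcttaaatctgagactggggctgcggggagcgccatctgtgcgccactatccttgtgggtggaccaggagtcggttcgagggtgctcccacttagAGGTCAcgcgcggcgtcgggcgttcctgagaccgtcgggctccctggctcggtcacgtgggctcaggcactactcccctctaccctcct
A stretch of the ESRRA promoter at chr11:64304803-64304961 on the plus strand is shown because it held the only element of the estrogen-related receptors (TCAAGGTCA, here read on the other strand). The core element stood there 3 times in close repeats, the last of them within the longer element.
ESRRA promoter: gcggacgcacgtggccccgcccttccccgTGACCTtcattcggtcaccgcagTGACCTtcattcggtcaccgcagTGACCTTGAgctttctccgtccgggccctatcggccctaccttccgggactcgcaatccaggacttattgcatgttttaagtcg

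The labelled cell type was checked on the promoters of marker genes. All 10 beta cell markers had a promoter region, and in 8 of them the strongest one lay above the median promoter signal of 506 normalised reads. Of 7 markers of other cell types 5 had a promoter region, and 1, the duct marker KRT19, lay above that median. No region was listed at the promoters of PRSS1 and PTPRC, markers of acinar and immune cells.

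Signal is given as normalised reads per library, averaged within each group as computed from the mean signal and fold change in the authors' deposited DESeq2 table, which holds no value of a single library. Fold changes are log2 values of senescent over non-senescent cells with their standard error (SE), and the adjusted p-values are those of DESeq2's Wald test over all 108542 regions. The table does not name the numerator, which was read as the senescent group. Under this reading the strongest promoter region of MKI67, a gene of proliferating cells, had a log2 fold change of -0.53 (SE 0.10) and that of INS, the insulin gene, 1.11 (SE 0.04). To be called higher or lower, a region needed a fold change over 1.5, or 0.58 on the log2 scale, and an adjusted p-value under 0.05. In cells measured in bulk, fewer cells with an open region and less opening per cell cannot be told apart.

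Accessibility fell at promoters of 5 of the 9 genes, namely NR4A1, ESR1, ESR2, ESRRG and GREB1, and rose at a promoter of none. Of the 30 promoter regions 11 were lower (36.7%), 0 were higher and 19 were not called. Over all 20094 promoter regions 9.04% were lower and 3.56% were higher. The median log2 fold change of the 30 regions was -0.33, against -0.13 over all promoter regions. NR4A1 supplied 5 of the 11 falls, and without it 6 of 22 regions were lower (27.3%), a comparison added after the data had been seen. At an adjusted p-value under 0.05 alone, 21 of the 30 were lower and 1 was higher, against 34.7% lower and 10.2% higher over all promoter regions. The distal regions went both ways. Of 43, 6 were higher and 6 were lower (14.0% each), against 18.1% higher and 10.6% lower over all 88448 distal regions, and their median was -0.15 against 0.08. By the adjusted p-value alone 12 were lower and 8 were higher, against 18.3% and 23.4% over all distal regions.

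**Figure D1:**
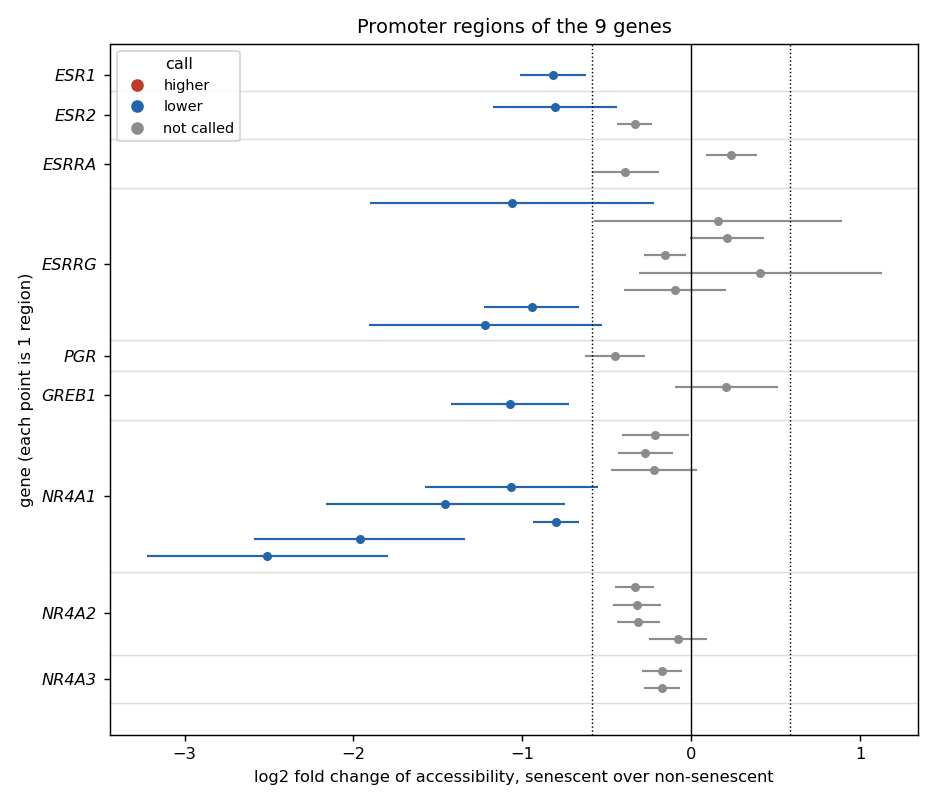
Log2 fold change of each promoter region (senescent over non-senescent) by gene, with the 95% interval as a bar and dotted lines at the limit of 0.58 on either side of 0. The 11 lower regions, in blue, belong to ESR1, ESR2, ESRRG, GREB1 and NR4A1, and the lowest point, at -2.51, is a region of NR4A1.

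**Figure D2:**
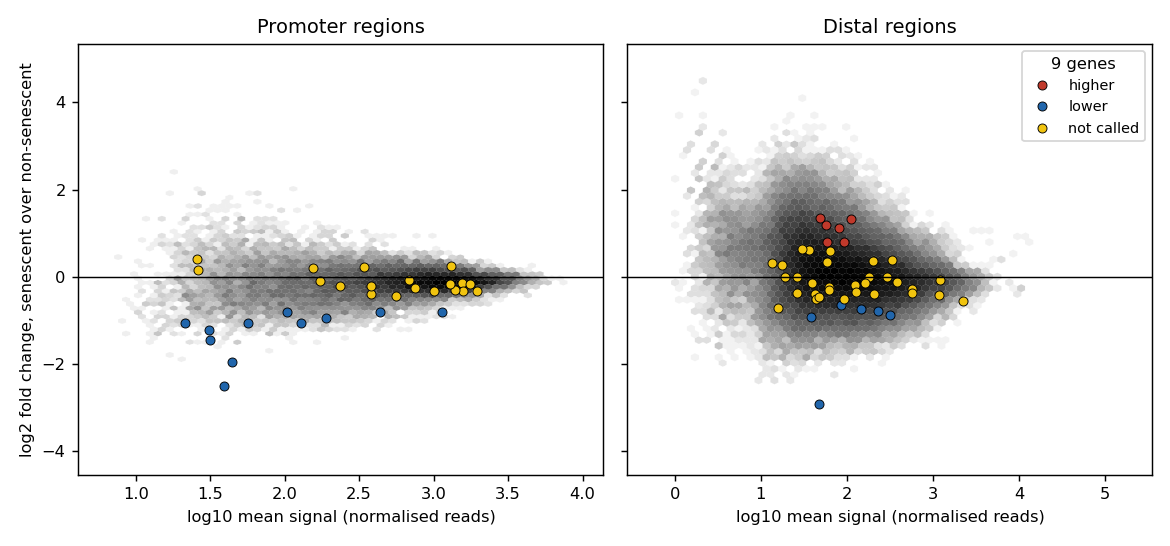
Log2 fold change against log10 of the mean signal for all promoter regions (left) and all distal regions (right) in grey, darker where regions are denser, with the regions of the 9 genes as points coloured by call. The 2 lowest blue promoter points and the single lowest blue distal point are regions of NR4A1 of low signal.

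NR4A1, the member with the largest falls, had 13 regions, of which 6 were lower, 0 were higher and 12 had a fold change below 0. The 6 lower regions followed each other without a gap, with midpoints from -11.7 kb to 8.86 kb of the start of the canonical transcript (chr12:52051442-52059503, plus strand). All 7 regions further upstream were not called and lay between -0.55 and 0.00.

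The main promoter region of NR4A1, chr12:52050266-52051784, covers the start of the canonical transcript and its first, noncoding exon. It held 1437 normalised reads in non-senescent and 823 in senescent cells (log2 fold change -0.80, SE 0.07, adjusted p = 6.9e-29). Its 95% interval, -0.94 to -0.67, lay wholly beyond the limit of 0.58.

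The falls were larger in the gene body, though at far lower signal. The region at chr12:52056364-52056654 overlaps coding exon 4 and went from 70.7 to 18.1 normalised reads (-1.96, SE 0.32, adjusted p = 9.9e-09). The next one, chr12:52057124-52057467, overlaps coding exons 5 and 6 and went from 66.2 to 11.6 (-2.51, SE 0.36, adjusted p = 1.1e-10). Both count as promoter regions because shorter NR4A1 transcripts are annotated to start nearby. Only 2 of the 20094 promoter regions, this one included, had a fold change of -2.51 or lower.

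The intergenic region at chr12:52060153-52060458 began 649 bp past the end of the canonical transcript. It went from 83.7 to 11.0 normalised reads (-2.93, SE 0.35, adjusted p = 5.0e-15). Of the 88448 distal regions 11, itself included, had a fold change at least as low. The interval, -3.62 to -2.23, did not overlap that of the main promoter. An antisense noncoding gene, NR4A1AS, overlaps the end of NR4A1, and ATAC-seq reads carry no strand that could assign the opening to either gene.

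Upstream, in introns of longer NR4A1 transcripts, chr12:52039613-52039897 went from 76.5 to 36.5 normalised reads (-1.07, SE 0.26, adjusted p = 2.3e-04) and chr12:52043072-52043351 went from 46.5 to 16.9 (-1.46, SE 0.36, adjusted p = 2.8e-04). Both were weak regions that fell. The 3 promoter regions at the distant upstream starts held more signal and were not called. Their log2 fold changes were -0.21 (SE 0.10) at chr12:52020670-52020973, -0.27 (SE 0.08) at chr12:52022995-52024092 and -0.22 (SE 0.13) at chr12:52036881-52037155.

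The strongest region of NR4A1 was a distal one, chr12:52018564-52019630, before all of its start sites. It went from 2663 to 1816 normalised reads, and its change (-0.55, SE 0.06, adjusted p = 2.5e-21) passed the test but not the limit on size. The other 3 distal regions upstream lay between -0.28 and 0.00. The neighbouring regions on the downstream side, nearest to ATG101, were not called, at 0.51 for the next distal region and -0.26 for the ATG101 promoter, a gene of autophagy initiation.

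**Figure D3:**
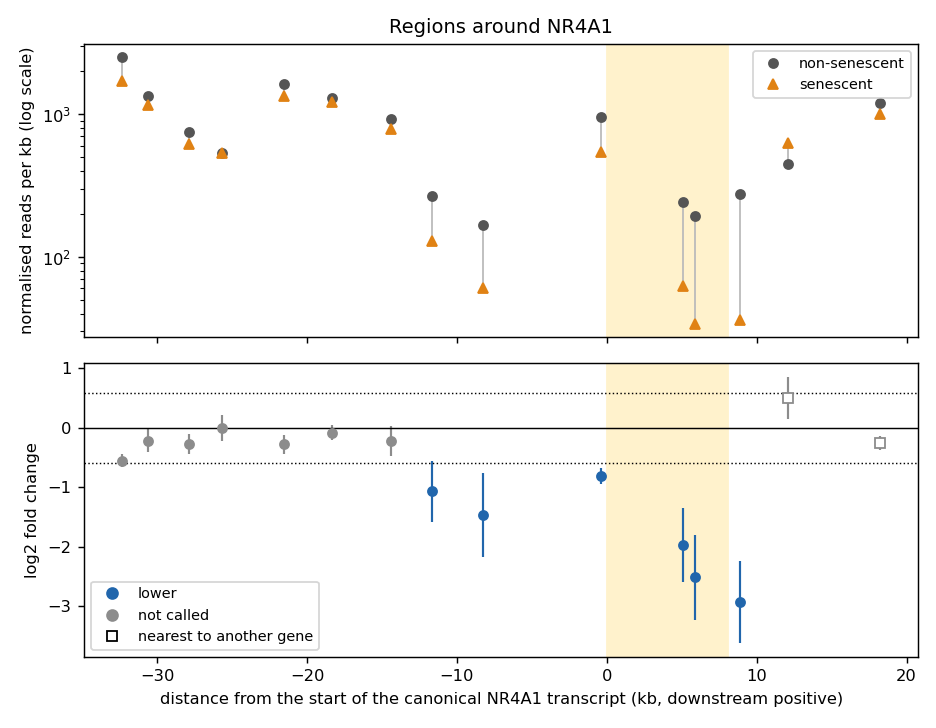
Regions around NR4A1 by distance in kb from the start of the canonical transcript, with the transcript shaded. The upper panel shows the group means in normalised reads per kb of region on a log scale, and the lower panel the log2 fold change with its 95% interval and dotted lines at 0.58 on either side of 0. The 6 blue points between -11.7 and 8.86 kb are the lower regions, and open squares are regions nearest to another gene.

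NR4A2, best known for its role in dopamine neurons, kept strong promoters with small changes. None of its 4 promoter regions was called. The region at chr2:156331986-156333464, over the start of the canonical transcript, held the only cAMP response element (TGACGTCA) in the 73 regions. It went from 1769 to 1403 normalised reads (-0.33, SE 0.06, adjusted p = 1.2e-07). The regions at chr2:156333676-156335006 and chr2:156340981-156342137 had nearly the same values, -0.32 (SE 0.07) and -0.31 (SE 0.06), and chr2:156342406-156343079 had -0.08 (SE 0.09, adjusted p = 0.49). The first 3 thus passed the test on a change that stayed within the limit on size.

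An intergenic region upstream of NR4A2 rose. At chr2:156380173-156380503 it went from 63.3 to 157 normalised reads (1.31, SE 0.19, adjusted p = 1.0e-10). Its interval, 0.94 to 1.69, lay wholly beyond the limit. The strongest distal region of NR4A2, chr2:156319540-156320596, had 1346 and 998 normalised reads (-0.43, SE 0.07, adjusted p = 1.8e-09) and was not called. The other 2 had fold changes of -0.46 and -0.12 with adjusted p-values of 0.19 and 0.36.

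NR4A3 had no called promoter region and 2 distal regions that rose. Its 2 promoter regions, chr9:99819334-99820323 and chr9:99821041-99822299, went from 1360 to 1204 and from 1874 to 1661 normalised reads. Both had a log2 fold change near -0.17 (SE 0.06 and 0.05) and were not called. The 2 higher of its 6 distal regions lay in introns. The one at chr9:99829589-99830165 went from 42.5 to 73.4 normalised reads (0.79, SE 0.27, adjusted p = 0.013), and the one at chr9:99849767-99849937 from 68.6 to 118 (0.79, SE 0.22, adjusted p = 1.4e-03). The strongest, chr9:99852356-99853133, had 637 and 489 (-0.38, SE 0.09, adjusted p = 1.2e-04) and was not called.

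The 3 NR4A genes were set against each other at the promoter region of highest signal, among 6 pairs of members compared in this way. The fold change at NR4A1 was lower than at NR4A2 by 0.47 on the log2 scale, with a 95% interval of the difference from -0.65 to -0.29. It was lower than at NR4A3 by 0.63, with an interval from -0.80 to -0.46. The interval of the difference between NR4A2 and NR4A3 ran from -0.32 to just below 0. These intervals treat the regions as independent, although they come from the same libraries, and they are not adjusted for the number of pairs.

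ESR1 had a single promoter region, chr6:151807438-151808604, over coding exon 1 of the canonical transcript, and it was lower. It went from 560 to 317 normalised reads (-0.82, SE 0.10, adjusted p = 1.2e-14). Of 6 distal regions, all in introns of longer transcripts, 1 was higher and 1 was lower. The region at chr6:151716241-151716782 went from 51.2 to 111 (1.12, SE 0.22, adjusted p = 4.6e-06), whereas chr6:151681018-151682039 went from 183 to 110 (-0.74, SE 0.17, adjusted p = 7.2e-05). The strongest, chr6:151668766-151669246, with 175 and 225, was not called (0.36, SE 0.15, adjusted p = 0.032).

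ESR2 had a strong and a weak promoter region. The weak one, chr14:64294045-64295189, covers the first, noncoding exon of the canonical transcript, holds the sequence shown above, and fell from 132 to 75.6 normalised reads (-0.81, SE 0.19, adjusted p = 9.7e-05). The strong one, chr14:64337912-64339283, lies at an upstream start site and had 2173 and 1724 (-0.33, SE 0.05, adjusted p = 4.2e-09), short of the limit. None of the 3 distal regions was called, and their fold changes ran from -0.23, at the strongest one (chr14:64275063-64275395, SE 0.26), to 0.61 (SE 0.33). At the strongest promoter regions the fold change was lower in ESR1 than in ESR2 by 0.49, with an interval of the difference from -0.71 to -0.26. That difference depends on the region taken. The weak ESR2 region, at the canonical start, had nearly the fold change of ESR1 (-0.81 against -0.82).

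Per length, the 2 receptors differed in level as well. The strongest promoter region held 1420 normalised reads per kb at ESR2 and 376 at ESR1, and the median of all promoter regions was 507. The order of the 2 genes depends on the region taken, since the weak ESR2 region, at the canonical start, held 90.8. No error can be given for these levels, because the table has no values of single libraries.

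ESRRA was the only member with no called region. Its region at chr11:64304422-64305643, with the repeated core elements, went from 1198 to 1412 normalised reads (0.24, SE 0.08, adjusted p = 7.3e-03). The neighbouring region at chr11:64305883-64306616 went from 428 to 327 (-0.39, SE 0.10, adjusted p = 5.0e-04) and held a match to the NR4A element (AAAGGTCA). Adjacent regions of the ESRRA promoter thus had fold changes of opposite sign, both within the limit.

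ESRRG, a gene with 18 annotated start sites, had 8 promoter regions, of which 3 were lower and 5 were not called. The promoter of its canonical transcript, chr1:216722970-216723920, held the most signal per length of all promoter regions of the 9 genes, 1637 normalised reads per kb. It went from 1640 to 1474 normalised reads (-0.15, SE 0.06, adjusted p = 0.038) and was not called. The falls were at weaker regions. At chr1:217134434-217136393 the signal went from 251 to 130 (-0.95, SE 0.14, adjusted p = 9.0e-10), at chr1:217137560-217137899 from 43.6 to 18.7 (-1.22, SE 0.35, adjusted p = 2.1e-03), and at chr1:216713856-216714260 from 28.9 to 13.9 (-1.06, SE 0.43, adjusted p = 0.034). The second of these covers a far upstream start of the gene. The first lies in an intron, with its midpoint 2.34 kb from the nearest start site, and the last also lies in an intron. The other 4 regions had fold changes of 0.21 (chr1:216721799-216722264), 0.16 (chr1:216715019-216715245), 0.41 (chr1:217078296-217078616) and -0.10 (chr1:217089261-217090436), with adjusted p-values from 0.12 to 0.76.

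Among 12 distal regions of ESRRG 3 were lower and 1 was higher. The strongest, intronic chr1:216705622-216706181, went from 406 to 222 normalised reads (-0.87, SE 0.12, adjusted p = 1.8e-12). The region at chr1:216685548-216686428 went from 292 to 168 (-0.80, SE 0.13, adjusted p = 5.3e-09), and chr1:216779806-216780141 from 50.5 to 26.5 (-0.93, SE 0.32, adjusted p = 0.011). The region that rose, chr1:216652055-216652524, went from 34.5 to 78.8 (1.19, SE 0.26, adjusted p = 4.2e-05). The strongest promoter regions of ESRRA and ESRRG differed by 0.39, with ESRRA above ESRRG and an interval from 0.19 to 0.59. Here too the order depends on the region taken. The weaker ESRRA promoter region, at -0.39, lay below the strongest one of ESRRG, at -0.15.

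PGR had 1 promoter region, chr11:101127323-101129846, over coding exon 1. It went from 644 to 471 normalised reads (-0.45, SE 0.09, adjusted p = 5.9e-06) and was not called. Of 6 distal regions, all intergenic, 1 was higher. It lay upstream of the gene at chr11:101138521-101138975 and went from 27.7 to 70.3 (1.34, SE 0.28, adjusted p = 1.5e-05). The strongest, chr11:101169722-101170387, had 287 and 373 (0.38, SE 0.11, adjusted p = 2.3e-03).

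GREB1 had no region within the window of its canonical start. Its promoter region at chr2:11539696-11540657, at the start of another transcript, went from 174 to 82.8 normalised reads (-1.07, SE 0.18, adjusted p = 2.7e-08) and was lower. The one at chr2:11482762-11483786, at a start far upstream, had 144 and 166 (0.21, SE 0.16, adjusted p = 0.28). Its only distal region, in an intron at chr2:11582854-11583617, was lower, with 104 and 66.3 (-0.64, SE 0.21, adjusted p = 8.6e-03). At their strongest promoter regions the fold change was lower in PGR than in GREB1 by 0.66, with an interval of the difference from -1.01 to -0.31. This order depends on the region taken, since the GREB1 promoter region that fell, of nearly the same mean signal, had a lower fold change than PGR. PGR and GREB1 were among the members with the least promoter signal per length, at 221 and 151 normalised reads per kb in their strongest promoter regions.

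**Figure D4:**
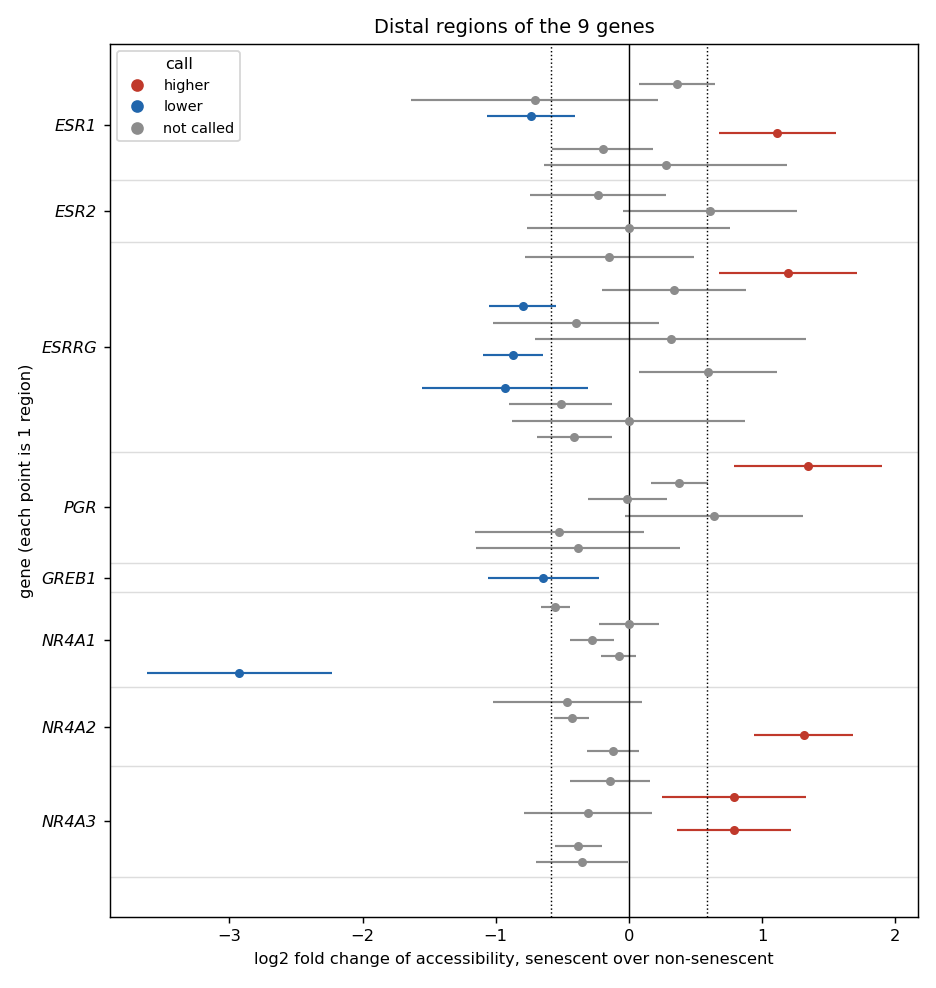
Log2 fold change of each distal region (senescent over non-senescent) by gene, with the 95% interval as a bar and dotted lines at 0.58 on either side of 0. Higher regions, in red, belong to ESR1, ESRRG, PGR, NR4A2 and NR4A3, and lower regions, in blue, to ESR1, ESRRG, GREB1 and NR4A1, where the lowest point is at -2.93.

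In a Wald test of whether the fold change exceeds 1.5, rather than differs from 0, 5 of the 23 called regions stayed called. They were the main promoter, both exonic regions and the downstream region of NR4A1, and the intergenic region near NR4A2. No region of the estrogen receptors, the estrogen-related receptors, PGR or GREB1 passed this stricter test. Over all regions it called 1.31% of promoter regions lower and 0.851% higher, and 1.95% of distal regions lower and 4.52% higher. The 6 distal regions that rose had a mean signal of 49.0 to 110, around the median of 76.8 over all distal regions.

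Elements that the receptors bind were searched on both strands. The paired estrogen response element, GGTCA and TGACC with 3 bases between them, had no match in the 73 regions. It is rare throughout, with a match in the middle 300 bases of 48 of the 108542 regions (0.0442%), and its share was 0.0358% in higher, 0.0359% in lower and 0.0471% in uncalled regions. The NR4A element matched in the same window in 2.11% of higher, 2.43% of lower and 1.91% of uncalled regions, and the element of the estrogen-related receptors in 0.519%, 0.404% and 0.366%. Both contain the core element AGGTCA, which matched in 21.1%, 17.4% and 17.6%. Higher regions were mostly distal, where these elements were more frequent than at promoters. Among distal regions alone the NR4A element matched in 2.13% of higher, 2.73% of lower and 2.2% of uncalled regions. The element of the estrogen-related receptors matched there in 0.524%, 0.429% and 0.409%, and the core element in 21.2%, 18.5% and 19.5%. Among the 73 regions the core element matched anywhere in 26, of which 3 were higher and 6 were lower, and in the middle 300 bases of 11 (15.1%, against 18.1% of all regions). Over all regions it matched in 11.3% of promoter and 19.7% of distal regions. Promoter regions made up a larger part of the 73 than of all regions, so the 2 shares are not alike in kind. A match is a stretch of letters and does not show that a receptor was bound.

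The AP-1 and cAMP response elements were added to the search after the data had been seen. In the middle 300 bases the AP-1 element (TGACTCA) matched in 9.79% of all higher regions, 5.19% of lower and 5.37% of uncalled regions. In the 73 regions it matched anywhere in 7, of which 1, the distal region of PGR that rose, was higher and 3 were lower. In their middle 300 bases it matched in 4 (5.48%), against 6.04% of all regions. The cAMP response element matched in 0.346% of higher, 0.179% of lower and 0.573% of uncalled regions. It was more frequent in promoter regions (1.41%) than in distal regions (0.291%), and higher regions were mostly distal. Among distal regions alone its shares were 0.312% of higher, 0.0857% of lower and 0.316% of uncalled regions.

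Related gene lists were counted in the same way, with the percentages over all regions given above as background. Of 64 promoter regions of 40 other nuclear receptor genes, 7 were lower (10.9%) and 0 were higher. They included 2 of NR2E1 (the lower at -1.33), 2 of RORA (-1.41), and 1 each of NR5A2 (-0.96) and NR2F2 (-0.65). Of their 177 distal regions 40 were higher and 19 were lower, with the most calls at NR5A2, which codes for LRH-1, at RXRA, the common dimer partner of other receptors, and at ESRRB, the third estrogen-related receptor, where 4 of 11 were higher and 1 was lower.

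Cofactors of the estrogen receptors had 3 of 38 promoter regions higher and 3 lower. Weak promoter regions of the corepressor genes NCOR1 (1.87) and NRIP1 (1.36) and of the acetyltransferase gene CREBBP (1.52) rose, and those that fell included regions of FOXA1 (-0.81) and PPARGC1B (-0.63). Their 107 distal regions had 22 higher and 14 lower, with NRIP1 and CREBBP among the genes with the most calls.

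Of 29 promoter regions of genes that estrogen induces in other cells, 6 were lower (20.7%) and 1 was higher. The region that rose was that of TFF1, a secreted trefoil peptide and classical estrogen target (1.06, SE 0.28, adjusted p = 6.9e-04). It was a weak region, with a mean signal of 46.8 normalised reads. None of the 2 distal regions of TFF1 was called, and the strongest had a fold change of -0.54. MYB and MYC, both proto-oncogenes, had 2 lower regions each, with -1.09 and -0.76 at the larger, and AREG (-0.74) and CA12 (-0.64) had 1 each. The members of this list moved in both directions at distal regions, with 21 of 94 higher and 9 lower, and CXCL12, MYB, RET and BCL2 had the most calls.

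Immediate early genes, which share their induction with the NR4A genes, had 5 of 36 promoter regions lower (13.9%) and 0 higher. They were 2 of ATF3 (the lower at -1.48), and 1 each of NPAS4 (-1.17), EGR3 (-0.90) and FOS (-0.59). ATF3 also had the most distal calls, of which 2 were higher and 1 was lower. Of 78 distal regions 7 were higher and 10 were lower. The 6 promoter regions of target genes of the estrogen-related receptors had 0 calls at these thresholds, and of their 17 distal regions 3 were higher and 2 were lower, most of them at PDK4, a brake on pyruvate oxidation.

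**Figure D5:**
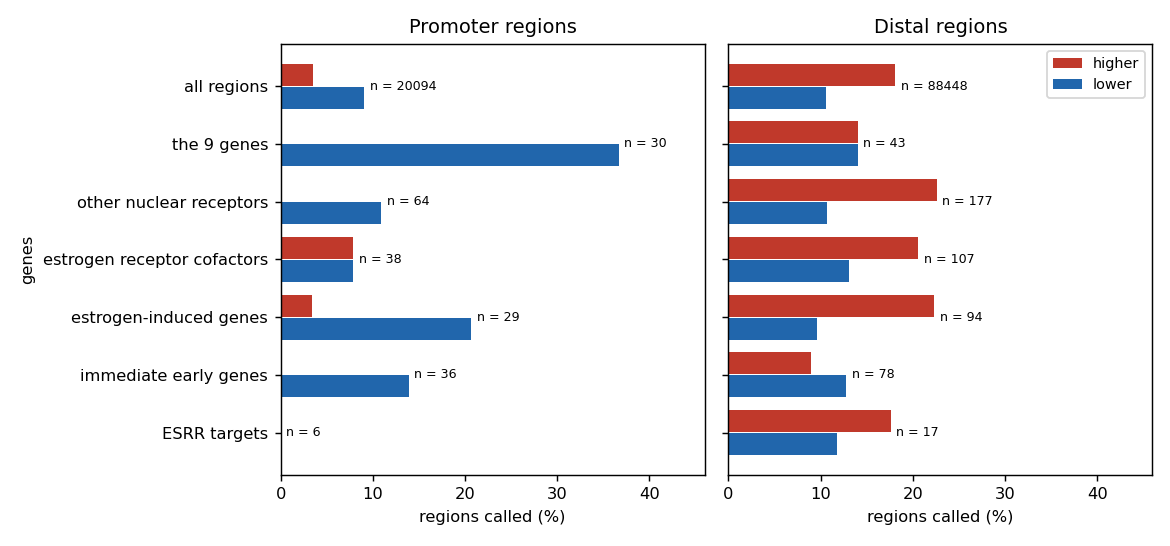
Percentage of promoter regions (left) and distal regions (right) called higher (red) and lower (blue) over all regions, for the 9 genes and for the related lists, with n as the number of regions. At promoters the 9 genes had 36.7% lower against 9.04% over all regions, and at distal regions 14.0% higher against 18.1%.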

How the data were processed

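ATAC-seq of 3 senescent and 3 non-senescent EndoC-βH3 libraries was used, grouped by the labels. By the study's methods, the authors aligned trimmed reads (Trim Galore) to hg38, removed duplicates, shifted reads for the transposase offset, called peaks with MACS2 and compared the groups with DESeq2, of a version not given in the sources used here. In the authors' deposited table the mean signal is the average over all libraries of counts scaled by size factors, and the log2 fold change with its error comes from their model. The score in the deposited table is the authors' Wald statistic, and the p-value and adjusted p-value are also the authors'. It was checked that these equal the fold change over its error, the two-sided Wald p-value and, adjusted by Benjamini-Hochberg, the values over 108542 regions. The table has no values per library, so depth per library, edgeR and replicate checks could not be had, and the analysis planned for that case, the authors' Wald test, was used. Precision is the standard error of 3 against 3 libraries.

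Group means were derived from mean signal and fold change for equal group sizes, and 95% intervals as 1.96 SE on either side. Starts were taken to count from 0 and are printed counting from 1. Genes came from GENCODE 44, and sequences from hg38. Named were all members with every promoter region, each called distal region and the strongest distal region, and from each list those with a called promoter region (at most 8) and the 3 with the most called distal regions, ties included where they are printed. Members and lists were chosen with earlier results of these data known. Scripts (Python 3.11.15, pandas 2.3.3, scipy 1.17.1) were tested on simulated data. Some items under these rules are not reported here. Alternatives were other thresholds, windows and scalings, and regions outside the rule were left out.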

Additional observations from a re-analysis of the deposited data

How the results depend on the processing

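With no limit on the fold change, 21 promoter regions were lower and 1 was higher, and 12 distal regions were lower and 8 higher, while calls over all regions rose to 23184 lower and 22711 higher. Testing whether the fold change exceeds 1.5 left 3 lower promoter regions and 1 higher and 1 lower distal region. At a mean signal of at least 50, or with a promoter window of 0.5 kb, 6 promoter regions were lower, as without NR4A1. At that signal 23 promoter regions of the 9 genes remained. For the window of 0.5 kb neither the number of regions nor a share over all regions is given, so its count is not a share. Over all 18214 promoter regions of that signal, 1546 were lower by the main calls. A distal limit of 500 kb, which takes in more regions, gave 12 higher and 12 lower distal regions. The shares over all distal regions, 18.1% higher and 10.6% lower, do not depend on this limit. The number of regions of the 9 genes within 500 kb is not given, so these counts cannot be set against those shares. The cause was not tested beyond what these settings change by their construction. Signs reversed only at regions that were not called. After the trend on mean signal was removed, the values were -0.104 for ESR1 at 151765580, -0.116 for ESRRG at 216715019, -0.0252 for ESRRG at 216692697, 0.0418 for PGR at 101187065, 0.0368 for NR4A1 at 52032601 and 0.056 for NR4A2 at 156342406. After the trend on GC content was removed, they were -0.0664 for ESRRG at 216721799, 0.0574 for PGR at 101187065, 0.0188 for NR4A1 at 52032601 and 0.0822 for NR4A2 at 156342406. Centring on the median gave -0.00602 for NR4A1 at 52025508. Of the 489 region values under all settings, 435 kept direction and side of the threshold. No paired analysis was possible because single libraries have no values in the table. For the same reason edgeR, another normalisation, a filter on low counts and leaving out a replicate were not run. Low signal limits 8 of the 23 called regions, which had a mean under 50 normalised reads.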
